A study of Mus musculus with 30 samples.

Results

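The transcripts described here encode 10 cell surface proteins and ligands that mark subsets of adipose progenitors: Ly6a, Cd34, Pdgfra, Pdgfrb, Dpp4, Pi16, Cd55, Icam1, F3 and Clec11a. They were found as the rows of the count table whose Ensembl gene carries 1 of these symbols, which gave 10 genes of 38561, and all 10 passed the filter on low counts that kept 14438 genes. The libraries hold RNA of adipose-derived stem cells, the stromal cells of a fat pad that attach, divide in culture and can become fat cells. They came from the inguinal fat, a depot under the skin, of male C57BL6/J mice, were sorted for Sca-1 and CD34 and against CD31, CD45 and Ter119, and were then grown to passage 2 with each mouse kept apart. The groups were 6 aged obese mice (52 weeks old, on a lard diet with 60% of its energy from fat since weaning), 8 aged lean mice (52 weeks, control chow), 8 young obese mice (20 weeks, the same fat diet) and 8 young lean mice (20 weeks, control chow). Every mouse gave 1 library, and no genotype or agent other than age and diet is named. In obese mice age and time on the diet cannot be told apart. The aged obese mice were survivors, as 8 of 12 were alive when the study ended.

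The fat pad holds progenitors in several states. In mouse inguinal fat, interstitial progenitors that carry Dpp4, Pi16 and Cd55 lie in the connective tissue sheath and give rise to committed preadipocytes that carry Icam1. A population marked by F3 and Clec11a is called regulatory, as it has been reported to hold back fat cell formation. That activity was not measured here. Ly6a (Sca-1) and Cd34 are the positive sort markers, and the PDGF receptors Pdgfra and Pdgfrb mark stromal and perivascular cells in general. The measurements are of RNA in bulk cultures after the sort and expansion, so fewer cells of a type and less RNA per cell cannot be told apart.

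The stretch of 250 bases before the transcription start is shown for 3 markers, Icam1 because it was called in 3 of the 6 comparisons, and Cd34 and Pi16 because their levels followed each other most closely. The sequences are from RefSeq on GRCm38.p6, which held a promoter for 8 of the 10 markers, and capitals mark a match to a searched motif on either strand.
Icam1: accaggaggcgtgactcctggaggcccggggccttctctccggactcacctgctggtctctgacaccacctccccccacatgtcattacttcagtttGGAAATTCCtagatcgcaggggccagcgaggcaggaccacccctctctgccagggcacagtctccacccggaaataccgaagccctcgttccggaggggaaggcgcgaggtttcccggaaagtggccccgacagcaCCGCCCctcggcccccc
Cd34: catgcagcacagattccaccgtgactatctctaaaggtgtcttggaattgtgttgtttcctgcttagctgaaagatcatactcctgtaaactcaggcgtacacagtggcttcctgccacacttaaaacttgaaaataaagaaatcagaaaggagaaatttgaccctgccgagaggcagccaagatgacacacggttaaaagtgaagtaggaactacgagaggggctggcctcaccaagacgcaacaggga
Pi16: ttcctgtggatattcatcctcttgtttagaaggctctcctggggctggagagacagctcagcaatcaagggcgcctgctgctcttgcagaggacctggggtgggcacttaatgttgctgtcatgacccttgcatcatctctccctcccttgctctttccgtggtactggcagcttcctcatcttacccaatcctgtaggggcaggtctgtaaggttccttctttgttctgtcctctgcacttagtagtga
These lie at chr9:21015690-21015939, chr1:194938571-194938820 and chr17:29318632-29318881, all on the plus strand. GENCODE on GRCm38 places the genes at chr9:21015985-21028817 (Icam1), chr1:194938819-194961279 (Cd34) and chr17:29317680-29330593 (Pi16), so that the Pi16 stretch lies inside the annotated gene. The motifs searched were the NF-kappaB motif GGAAATTCC, the AP-1 motif TGANTCA, the TATA box TATAAA, the E-box CACGTG and the GC box GGGCGG, none of which overlaps another in these stretches. Icam1 holds GGAAATTCC, starting 153 bases before the start, and a GC box on the opposite strand. GGAAATTCC was found in 0.286% of 32851 promoters and in no other marker. A GC box was found in 32.7% of promoters and in Cd55, Clec11a, F3 and Icam1, an AP-1 motif in 6.75% and in F3, a TATA box in 12.4% and in Dpp4, and an E-box in 6.02% and in no marker. The Cd34 and Pi16 stretches hold none of these letter strings.

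Counts in genes lay between 30597765 and 47970233 per library, and levels are CPM, a gene's count relative to the TMM-scaled library size. RNA of the markers sorted against was scarce, as Ptprc, which encodes CD45, had at most 0.029 CPM and Pecam1 (CD31) at most 0.278 CPM. The red cell genes Hba-a1, Hbb-bs and Hbb-bt had no count in any of the 30 libraries, and 7 red cell genes summed to at most 0.672 CPM. Lists of leukocyte and endothelial genes were less scarce. The 10 leukocyte genes summed to 12.09 to 36.75 CPM per library, with Csf1r at up to 30.65 CPM. The 8 endothelial genes summed to 1.284 to 20.89 CPM. Whether such cells were present was not tested. Of the positive sort markers, Ly6a stood above 98.9% of tested genes in mean level and Cd34 above 33.8%. Aged obese 10 and 12 were low in both at the RNA level, with 9 and 29 counts of Cd34 and the lowest Ly6a of all libraries. Cd34 was nearly as low in young obese 21 (31 counts), aged lean 17 (37) and young obese 20 (38). The RNA was taken after growth to passage 2, so these counts do not test the sort. Young obese 1 and 2 stood apart from the other 6 young obese libraries in Cd34 and Pi16. Libraries of a group also differed in how closely they resembled each other (chi-square per gene of 6.34 to 476), and the tests treat them as independent. The closest were young obese libraries, with 6.34 to 8.05 among 19, 20 and 21 and 8.23 between 1 and 2. The lowest value among young lean libraries was 21. Counts of young obese libraries may thus rest on fewer independent values, and p-values that use this group may be too small.

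Icam1 was the one marker called with obesity. It was higher in obese than in lean cells at both ages, 2.55-fold in aged and 1.96-fold in young mice, and Pdgfrb was 1.47-fold higher in aged obese than in young obese cells. The sort markers, Pdgfra, the interstitial trio and the regulatory pair were called in no comparison by edgeR's quasi-likelihood test. Clec11a still had a larger log2 change with obesity in aged mice than Icam1 (1.72 ± 0.52 against 1.35 ± 0.25). With obesity in aged mice 1 of 10 markers rose and 0 fell, where 0.222% of all tested genes were called, 0.166% higher and 0.0554% lower. With obesity in young mice 1 rose and 0 fell (8.83% of all genes called, 3.46% higher and 5.37% lower), so 1 of 10 is near the share of all genes. With age in obese mice 1 rose and 0 fell (3.07% of all genes called, 1.87% higher and 1.2% lower), and for aged obese against young lean cells 2 rose and 0 fell (10.3% of all genes called, 5.62% higher and 4.65% lower). With age in lean mice 0 markers passed (0% of all genes called), 0 had an unadjusted p below 0.05, and DESeq2 and voom with quality weights called 0. Tested as an interaction, aged minus young, the effect of obesity differed for 0 markers (0.00693% of all genes called), with 1 marker, Clec11a, at an unadjusted p below 0.05 and 0 called by DESeq2 or voom. Comparisons that share a group are not independent of each other.

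The median log2 change of the 10 markers was 0.26 with obesity in aged mice, beside 0.01 for all tested genes, and 0.03 with obesity in young mice, beside -0.02. It was 0.39 with age in obese mice (all genes 0.01), -0.03 with age in lean mice (all genes -0.02) and 0.49 in aged obese against young lean cells (all genes -0.01). Without aged obese 10 and 12 and young obese 1 and 2 the markers' medians were 0.76 with obesity in aged mice, -0.28 with obesity in young mice, 0.74 with age in obese mice, -0.02 with age in lean mice and 0.84 for aged obese against young lean cells, beside -0.01, -0.02, 0.02, -0.01 and -0.02 for all genes. In that fit 6 markers passed with age in obese mice, where 30.2% of all genes did, and 5 for aged obese against young lean cells, where 17% did. The libraries left out stood apart by their own marker levels. Calls found only without them, here and below, are descriptions and not tests. Over all genes these libraries also differed from the rest of their groups. Chi-square per gene was 232 to 476 for aged obese 10 and 12 and 154 to 368 for young obese 1 and 2.

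**Figure D1:**
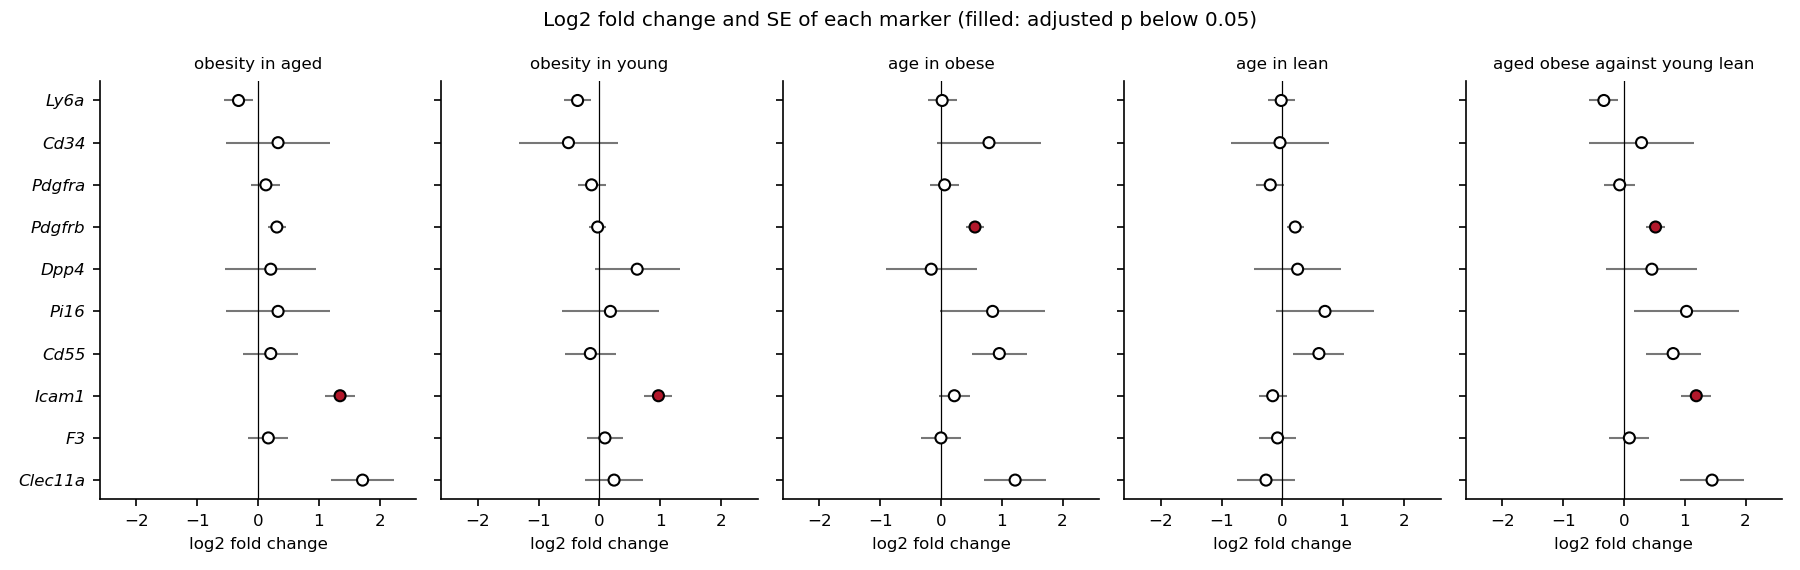
Log2 fold change of each marker (points) with its SE (lines) in the 5 comparisons between groups, filled where the adjusted p was below 0.05. Icam1 is filled with obesity in aged (1.35) and in young mice (0.97) and for aged obese against young lean cells (1.19). Pdgfrb is filled with age in obese mice (0.56) and for aged obese against young lean cells (0.52).

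Ly6a (ENSMUSG00000075602) encodes Sca-1, a membrane-anchored protein of the Ly6 family used to enrich mouse stem and progenitor cells. Its level was 176.5, 362, 917, 1019, 983 and 958 CPM in aged obese libraries 10, 12, 14, 15, 16 and 17, the order kept for all markers, against a lowest of 754, a median of 866 and a highest of 1207 CPM in aged lean libraries. It was 549.5, 741 and 811 CPM (lowest, median, highest) in young obese libraries, against 700.3, 816 and 1254 CPM in young lean libraries. The first pair of aged obese libraries lay below every other library, the remaining 4 lay inside the aged lean range, and all 8 young obese libraries lay below the young lean median. The log2 change with obesity was -0.32 ± 0.24 (SE) in aged mice (adjusted p = 0.638) and -0.36 ± 0.22 in young mice (adjusted p = 0.303), and neither passed. Without aged obese 10 and 12 in the shared fit, the change in young mice was -0.35 ± 0.11 and passed (adjusted p = 0.0433). In the same fit the change with age in obese mice was 0.43 ± 0.14 (adjusted p = 0.0343), against 0.02 ± 0.24 with all libraries, and the change with obesity in aged mice turned to 0.09 ± 0.14 (adjusted p = 0.76). The libraries left out had the lowest Ly6a of all, so the call with age in obese mice is no test of a group difference. Reads of Ly6a can be confused with those of near-identical Ly6 genes, which makes its level uncertain.

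Of 9 other Ly6 family genes 4 were tested. Cd59a, an inhibitor of the complement attack complex, was the one that passed. It had 9.15 ± 2.41 CPM in aged obese and 5.29 ± 1.15 CPM in young obese libraries (n = 6 and 8, log2 0.79 ± 0.17, edgeR adjusted p = 0.0139), and fell by 0.52 with obesity in young mice (edgeR adjusted p = 0.0376). Without aged obese 15 the first of these calls ended (adjusted p = 0.0631). Without young obese 1 and 2 the second did (0.0817), as it did in 10 of 30 fits that left out 1 library.

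Cd34 (ENSMUSG00000016494), a sialomucin of progenitor and endothelial cells, varied widely between mice of a group. Its level was 0.193, 0.732, 13.7, 38.0, 9.67 and 21.1 CPM in aged obese libraries, against 1.07, 8.33 and 28.7 CPM (lowest, median, highest) in aged lean libraries. In young obese libraries it was 26.1 and 27.9 CPM in young obese 1 and 2 and 0.912 to 2.79 CPM in the other 6, against 4.80, 9.43 and 22.6 CPM in young lean libraries. The other 6 young obese libraries thus lay below every young lean library, and young obese 1 and 2 above every one. The log2 change with obesity in young mice was -0.51 ± 0.81 (adjusted p = 0.715). It was -2.73 ± 0.80 without young obese 1 and 2 (adjusted p = 0.0667), and -2.73 ± 0.61 without these and aged obese 10 and 12 (adjusted p = 0.0144). In those 2 fits the change with age in obese mice was 3.02 ± 0.83 (adjusted p = 0.0388) and 3.6 ± 0.68 (adjusted p = 0.00139), against 0.79 ± 0.86 (adjusted p = 0.655) with all libraries. The libraries left out had the highest Cd34 of the young obese and the lowest of the aged obese group. The adjusted p-values of these fits are therefore no test of a group difference in Cd34. Of the other sialomucins and L-selectin ligands, Podxl, Podxl2, Cd164 and Emcn, 2 were tested and 0 passed in the 6 comparisons (0 at an unadjusted p below 0.05, 0 in DESeq2 and 1 in voom).

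**Figure D2:**
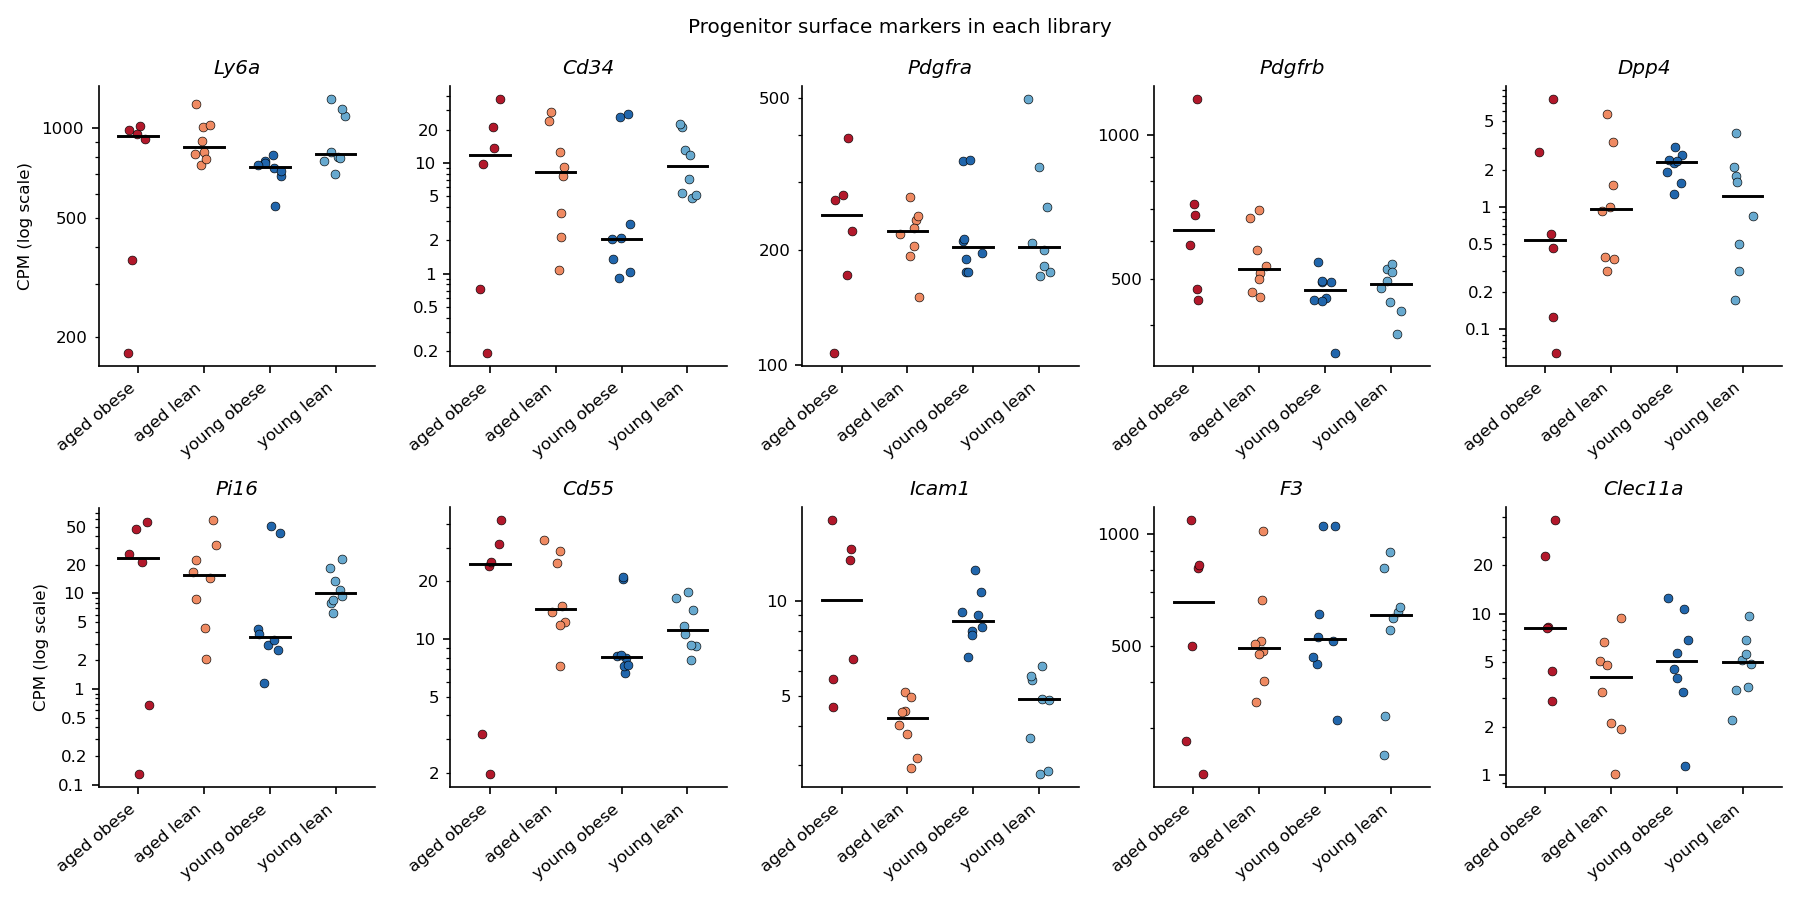
CPM of each marker on a log scale, 1 point per library and a line at the group median, in 6 aged obese, 8 aged lean, 8 young obese and 8 young lean libraries. Icam1 does not overlap between young obese and young lean libraries (the share of all genes without overlap was not counted). Cd34, Pi16 and Cd55 have a separate pair of young obese libraries above the other 6.

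Pdgfra (ENSMUSG00000029231), the receptor for PDGF-AA that marks fibroblasts and adipose progenitors, overlapped between all groups. Its level was 108, 172, 391, 279, 224 and 271 CPM in aged obese libraries, against 150.5, 224 and 274 CPM (lowest, median, highest) in aged lean libraries. It was 175, 204 and 344 CPM in young obese libraries, against 171, 204 and 497 CPM in young lean libraries. EdgeR called Pdgfra in 0 of the 6 comparisons. Its change with age in obese mice passed without all 4 libraries that stood apart (0.60 ± 0.23, adjusted p = 0.0479). Pdgfrb (ENSMUSG00000024620), the PDGF-BB receptor of mural cells and of fibroblasts, was the steadiest marker. It had 451, 589, 680, 1194, 475 and 717 CPM in aged obese libraries, against 349, 473 and 542 CPM in young obese and 382, 486.5 and 538 CPM in young lean libraries. Aged lean libraries lay at 458, 523 and 696 CPM. Aged obese 15 had the highest value, and 4 of 6 aged obese libraries exceeded every young library.

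Pdgfrb had 684 ± 271 CPM in aged obese and 465 ± 56.3 CPM in young obese libraries (SD, n = 6 and 8). The log2 change was 0.56 ± 0.15 (edgeR adjusted p = 0.0419, higher than the young obese median in 5 of 6 libraries). In aged obese against young lean cells (476 ± 53.6 CPM) it was 0.52 ± 0.15 (edgeR adjusted p = 0.0281, higher than the young lean median in 4 of 6). The call with age in obese mice ended in 11 of 30 fits that each left out 1 library, with the lowest change, 0.32 ± 0.12, without aged obese 15 (adjusted p = 0.222). It also ended when lean libraries were not fitted (adjusted p = 0.135), while it held without aged obese 10 and 12 (0.73 ± 0.16, adjusted p = 0.00641). The call against young lean cells ended without aged obese 15 (0.29 ± 0.12, adjusted p = 0.147), without aged obese 17 (0.0597) and without young lean 26 (0.0519).

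Of 5 PDGF ligand and receptor-like genes 4 were tested, Pdgfa, Pdgfc, Pdgfd and Pdgfrl, and edgeR called 0 in the 6 comparisons (1 at an unadjusted p below 0.05, 0 in DESeq2, 3 in voom). Pdgfa, the ligand of Pdgfra, had medians of 33.3 CPM in aged obese, 29.8 in aged lean, 33.4 in young obese and 32.6 in young lean libraries. Of 8 mural cell genes 7 were tested, of which 1 rose in aged obese against young obese cells, 2 rose against young lean cells and 0 passed in the other 4 comparisons (edgeR). Cspg4, a pericyte proteoglycan, rose in aged obese against young obese cells (38.4 ± 34.9 and 9.31 ± 2.39 CPM, log2 2.04 ± 0.47, edgeR adjusted p = 0.0223), which aged obese 15 decided (log2 1.43 in its absence, adjusted p = 0.12). Against young lean cells Cspg4 (log2 1.5, adjusted p = 0.0378) and the smooth muscle myosin Myh11 (log2 1.2, adjusted p = 0.0467) rose, and both calls ended without aged obese 10 and 12 (adjusted p = 0.0632 and 0.305). The summed level of the mural list, most of it the actin gene Acta2, was 3255 to 7461 CPM in aged obese, 3160 to 4936 in aged lean, 4279 to 5724 in young obese and 2706 to 5557 CPM in young lean libraries. The sum was 7461 CPM in aged obese 10, with 451 CPM of Pdgfrb, and 3638 CPM in aged obese 15, with 1194 CPM. This sum does not stand for every mural gene, as the rise of Cspg4 over young obese cells rested on aged obese 15. The part of mural genes in the level of Pdgfrb was not tested.

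Dpp4 (ENSMUSG00000035000), a membrane peptidase that marks the interstitial progenitor, was the scarcest marker. It had 0.0642, 0.126, 0.605, 0.463, 7.63 and 2.79 CPM in aged obese libraries, the lowest of these being 3 counts, against 0.297, 0.959 and 5.75 CPM (lowest, median, highest) in aged lean libraries. It was 1.26, 2.31 and 3.09 CPM in young obese libraries, against 0.174, 1.22 and 4.01 CPM in young lean libraries. All 8 young obese libraries lay above the young lean median, and the groups still overlapped (log2 0.62 ± 0.70, adjusted p = 0.592). Of 7 family members 6 were tested. Dpp6, a relative without peptidase activity, had 0.988 ± 1.13 CPM in young obese and 0.182 ± 0.154 CPM in young lean libraries (n = 8 each, log2 2.41 ± 0.77, edgeR adjusted p = 0.0478). Its call ended in 19 of 30 fits that left out 1 library, and was lost without young obese 1 and 2 (log2 1.34, adjusted p = 0.2835).

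Pi16 (ENSMUSG00000024011), a peptidase inhibitor that marks fibroblasts of connective tissue, spread more than all but a few genes. Its level was 0.128, 0.682, 26.02, 47.2, 21.2 and 55.4 CPM in aged obese libraries, against 2.05, 15.5 and 58.4 CPM (lowest, median, highest) in aged lean libraries. It was 43.1 and 50.6 CPM in young obese 1 and 2 and lay between 1.16 and 4.26 CPM among the remaining 6 of that group, against 6.25, 10.2 and 22.8 CPM in young lean libraries. As for Cd34, those 6 lay below every young lean library and the pair above. The log2 change with obesity in young mice was 0.18 ± 0.80 with all libraries (adjusted p = 0.907). It turned to -2.03 ± 0.77 without young obese 1 and 2 (adjusted p = 0.121), to -2.03 ± 0.53 without all 4 libraries (adjusted p = 0.0217) and to -1.56 ± 0.54 with voom quality weights (adjusted p = 0.0307). With age in obese mice the change was 0.85 ± 0.86 (adjusted p = 0.631), and 3.07 ± 0.83 without young obese 1 and 2 (adjusted p = 0.0355). As for Cd34, the libraries left out had the highest Pi16 of the young obese or the lowest of the aged obese group. The adjusted p-values without them are therefore no test of a group difference in Pi16.

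Cd55 (ENSMUSG00000026399), which speeds the decay of complement convertases on the cell's own surface, followed the same libraries. It was 1.97, 3.18, 24.1, 31.4, 25.3 and 41.8 CPM in aged obese libraries, against 6.67, 8.11 and 21.1 CPM (lowest, median, highest) in young obese libraries. It was 7.22, 14.3 and 32.9 CPM in aged lean and 7.79, 11.2 and 17.7 CPM in young lean libraries. In all, 4 of 6 aged obese libraries lay above every young library and 2 below every one. The change with age in obese mice was 0.96 ± 0.45 (adjusted p = 0.246), and 1.49 ± 0.34 without aged obese 10 and 12, where it passed (adjusted p = 0.00856). The libraries left out had the lowest Cd55 of all, so that call is no test of a group difference. Reads of Cd55 can be lost to a near copy beside it, so its level is uncertain. Among complement regulators 4 of 6 listed genes were tested, and with obesity in young mice Cd46 (log2 -1.07 ± 0.30, edgeR adjusted p = 0.0314) and Cd59a fell. Cd46 was low, at 0.328 ± 0.104 CPM in young obese and 0.699 ± 0.279 CPM in young lean libraries (n = 8 each), and its call ended without young obese 1 and 2 (adjusted p = 0.0932).

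Of 16 other interstitial progenitor genes 15 were tested. With obesity in young mice Cmah, an enzyme that modifies sialic acid, rose (61.1 ± 7.96 CPM in 8 young obese and 40.4 ± 9.90 CPM in 8 young lean libraries, log2 0.60 ± 0.18, edgeR adjusted p = 0.0372). The cytokine Il18 fell (1.48 ± 0.419 and 2.44 ± 0.522 CPM, log2 -0.71 ± 0.21, edgeR adjusted p = 0.0337). This list's median log2 change was 0.00, beside -0.02 for all genes, and both calls ended without young obese 1 and 2 (adjusted p = 0.0682 and 0.113). In the other 5 comparisons edgeR called 0 of the 15. Over the 6 comparisons 8 gene-by-comparison values had an unadjusted p below 0.05, and DESeq2 called 5 and voom 8.

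Icam1 (ENSMUSG00000037405) encodes an adhesion molecule that binds leukocyte integrins, and on progenitors it marks commitment to the fat lineage. Its level was 18.05, 13.5, 14.6, 6.54, 5.63 and 4.61 CPM in aged obese libraries, against 2.94, 4.24 and 5.13 CPM (lowest, median, highest) in aged lean libraries. It was 6.66, 8.64 and 12.5 CPM in young obese libraries, against 2.81, 4.86 and 6.22 CPM in young lean libraries. The young groups did not overlap, as all 8 young obese libraries lay above the highest young lean one. The share of all tested genes without overlap between these groups was not counted, so how unusual this is was not measured. In aged mice 5 of 6 obese libraries lay above every lean one. Icam1 had 10.5 ± 5.61 CPM in aged obese and 4.11 ± 0.788 CPM in aged lean libraries (SD, n = 6 and 8), and 9.01 ± 1.83 CPM in young obese and 4.58 ± 1.32 CPM in young lean libraries (n = 8 each).

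The log2 change of Icam1 with obesity was 1.35 ± 0.25 in aged mice (edgeR adjusted p = 0.0113, above the lean median in 6 of 6 libraries) and 0.97 ± 0.23 in young mice (adjusted p = 0.0182, above it in 8 of 8). In aged obese against young lean cells it was 1.19 ± 0.25 (adjusted p = 0.00668, above the young lean median in 5 of 6). The obesity effects at the 2 ages differed by 0.38 ± 0.34 (adjusted p = 0.766), and with age itself the change was 0.22 ± 0.25 in obese mice (adjusted p = 0.666) and -0.16 ± 0.23 in lean mice (adjusted p = 0.94). The call in aged mice ended without aged obese 10 (1.13 ± 0.24, adjusted p = 0.051), without aged obese 10 and 12 (0.94 ± 0.24, adjusted p = 0.105), under voom's weights (1.08, adjusted p = 0.0546) and when the young libraries were not fitted (1.36 ± 0.29, adjusted p = 0.18). The call in young mice held with each of 30 libraries left out (0.90 to 1.06, adjusted p at most 0.0499) and ended without young obese 1 and 2 together (0.97 ± 0.25, adjusted p = 0.0547).

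No relative of Icam1 passed. Of 7 Icam and Vcam genes and leukocyte integrin partners 3 were tested, and edgeR, DESeq2 and voom called 0 in the 6 comparisons (0 at an unadjusted p below 0.05). Vcam1, the other adhesion molecule of stromal cells, had medians of 164 CPM in aged obese, 184 in aged lean, 161 in young obese and 175 CPM in young lean libraries. Of 12 genes induced by NF-kappaB, whose motif has a match in the Icam1 stretch shown above, 11 were tested. Their median log2 change with obesity was 0.16 in aged mice (all genes 0.01) and -0.03 in young mice (all genes -0.02), and edgeR called 0 in either, with 1 and 0 at an unadjusted p below 0.05 and 0 in DESeq2 or voom. In aged obese against young lean cells the median was 0.20 (all genes -0.01), and edgeR called 1. There 5 had an unadjusted p below 0.05, and DESeq2 and voom called 2 each. With age in obese mice, where Icam1 was not called, the median was 0.40 (all genes 0.01), and edgeR called 0. In that comparison 5 had an unadjusted p below 0.05, and DESeq2 called 1 and voom 5. Nfkbia, the inhibitor that NF-kappaB induces, had medians of 29.9 CPM in aged obese, 26.1 in aged lean, 21.3 in young obese and 22.5 CPM in young lean libraries. Nfkb1, a subunit of the factor, was higher in aged obese than in young lean cells (54.1 ± 20.3 and 36.5 ± 7.66 CPM, n = 6 and 8, log2 0.57 ± 0.18, edgeR adjusted p = 0.0418), and its call ended in 8 of 30 fits without 1 library.

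The 14 other genes of committed preadipocytes were all tested. Adam12, a membrane metalloprotease, rose in young obese against young lean cells (239 ± 44.5 and 171 ± 44.0 CPM, n = 8 each, log2 0.48 ± 0.14, edgeR adjusted p = 0.038) and, set against the same young lean cells, in aged obese ones (265 ± 55.9 CPM, log2 0.63 ± 0.15, edgeR adjusted p = 0.0133). The chemokine Cxcl14 also rose in aged obese over young lean cells (1146 ± 1093 and 225.5 ± 153 CPM, log2 2.34 ± 0.63, edgeR adjusted p = 0.0198), with a range of 298 to 3092 CPM in aged obese libraries. In these comparisons the list's median was -0.27 (young, all genes -0.02) and 0.08 (aged obese against young lean, all genes -0.01). Without young obese 1 and 2 the call of Adam12 in young mice ended (log2 0.35, adjusted p = 0.16), and that of Cxcl14 ended without aged obese 14 (log2 1.75, adjusted p = 0.0627) and without aged obese 15 (0.0525).

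F3 (ENSMUSG00000028128), tissue factor, starts the extrinsic clotting cascade and is also called CD142, the marker of the regulatory population. It was among the most abundant markers, at 225, 278, 1093, 813, 826 and 499 CPM in aged obese libraries, against 353, 495.5 and 1020 CPM (lowest, median, highest) in aged lean libraries. It was 315.5, 523 and 1053 CPM in young obese libraries, against 255, 607 and 899 CPM in young lean libraries. All groups overlapped. The change with obesity in aged mice was 0.17 ± 0.33 with all libraries (adjusted p = 0.897) and 0.55 ± 0.32 without aged obese 10 and 12 (adjusted p = 0.342), and with age in obese mice it was 0.76 ± 0.29 without all 4 libraries that stood apart (adjusted p = 0.0527). Of 9 partners in clotting 7 were tested. Procr, the receptor of protein C, was the one that passed, at 21.6 ± 8.98 CPM in aged obese and 12.4 ± 3.36 CPM in young obese libraries (n = 6 and 8, log2 0.81 ± 0.21, edgeR adjusted p = 0.0386), and this call ended in 7 of 30 fits without 1 library.

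Clec11a (ENSMUSG00000004473), a secreted growth factor of bone and marrow stroma also named osteolectin, had its highest values in aged obese cells. It was 2.87, 4.42, 38.2, 23.02, 8.30 and 8.17 CPM in aged obese libraries, against 1.01, 4.04 and 9.41 CPM (lowest, median, highest) in aged lean libraries. It was 1.14, 5.13 and 12.6 CPM in young obese libraries, against 2.21, 5.03 and 9.67 CPM in young lean libraries. Aged obese 14 and 15 exceeded every other library, and the remaining 4 overlapped the other groups. The log2 change with obesity was 1.72 ± 0.52 in aged mice (adjusted p = 0.145) and 0.24 ± 0.48 in young mice (adjusted p = 0.784), with a difference between ages of 1.49 ± 0.71 (adjusted p = 0.621). Other settings called the change in aged mice: DESeq2 (1.73, adjusted p = 0.0437), voom with quality weights (2.01, adjusted p = 0.0452) and the fit without all 4 libraries that stood apart (2.18 ± 0.48, adjusted p = 0.0333). Against young lean cells it was 1.45 ± 0.52 (adjusted p = 0.0647) and passed without aged obese 10 (1.68 ± 0.51, adjusted p = 0.0395) or 16 (1.57 ± 0.54, adjusted p = 0.0452). These values depended on aged obese 14. In its absence the change was 1.1 ± 0.50 with obesity in aged mice (edgeR adjusted p = 0.301), 0.85 ± 0.50 against young lean cells (0.266) and 0.89 ± 0.67 in the difference between ages (0.793).

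The 9 other regulatory progenitor genes were all tested. With age in obese mice 9 of 9 had a positive log2 change, with a median of 1.14 beside 0.01 for all genes, and 1 passed. It was Mgp, an inhibitor of calcification, at 51.5 ± 39.6 CPM in aged obese and 16.7 ± 12.01 CPM in young obese libraries (n = 6 and 8, log2 1.63 ± 0.44, edgeR adjusted p = 0.0393). With obesity the median was 0.77 in aged mice (9 of 9 positive) and -0.70 in young mice (1 of 9 positive), and edgeR called 0 in either. DESeq2 called 0 and 1 there, and voom 0 and 6. The differences between ages were positive for 9 of 9, with a median of 1.31, and 0 passed in edgeR or DESeq2 and 1 in voom. The call of Mgp ended in 8 of 30 fits that left out 1 library and when lean libraries were not fitted (adjusted p = 0.112). Without all 4 libraries that stood apart the list's median with age in obese mice was 2.54 and 8 of 9 passed, where 30.2% of all genes did.

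Fat cell and mural genes are given beside this list. Of 6 fat cell genes 3 were tested, and their median log2 change was 2.38 with age in obese mice (3 of 3 positive), -2.7 with obesity in young mice (0 of 3 positive) and 2.43 in the difference between ages (3 of 3 positive). EdgeR and voom called 0 of them in the 6 comparisons, DESeq2 called 3 with obesity in young mice, and 6 gene-by-comparison values had an unadjusted p below 0.05. Their summed level was 0.599 to 16.2 CPM in aged obese, 0.535 to 30.5 in aged lean, 0.267 to 2.44 in young obese and 0.327 to 23.2 CPM in young lean libraries, and Lep, which encodes leptin, had no count in any library. The 7 mural genes had a median of 1.02 with obesity in aged mice, 7 of 7 positive. The part of either cell type in the regulatory list was not tested.

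**Figure D3:**
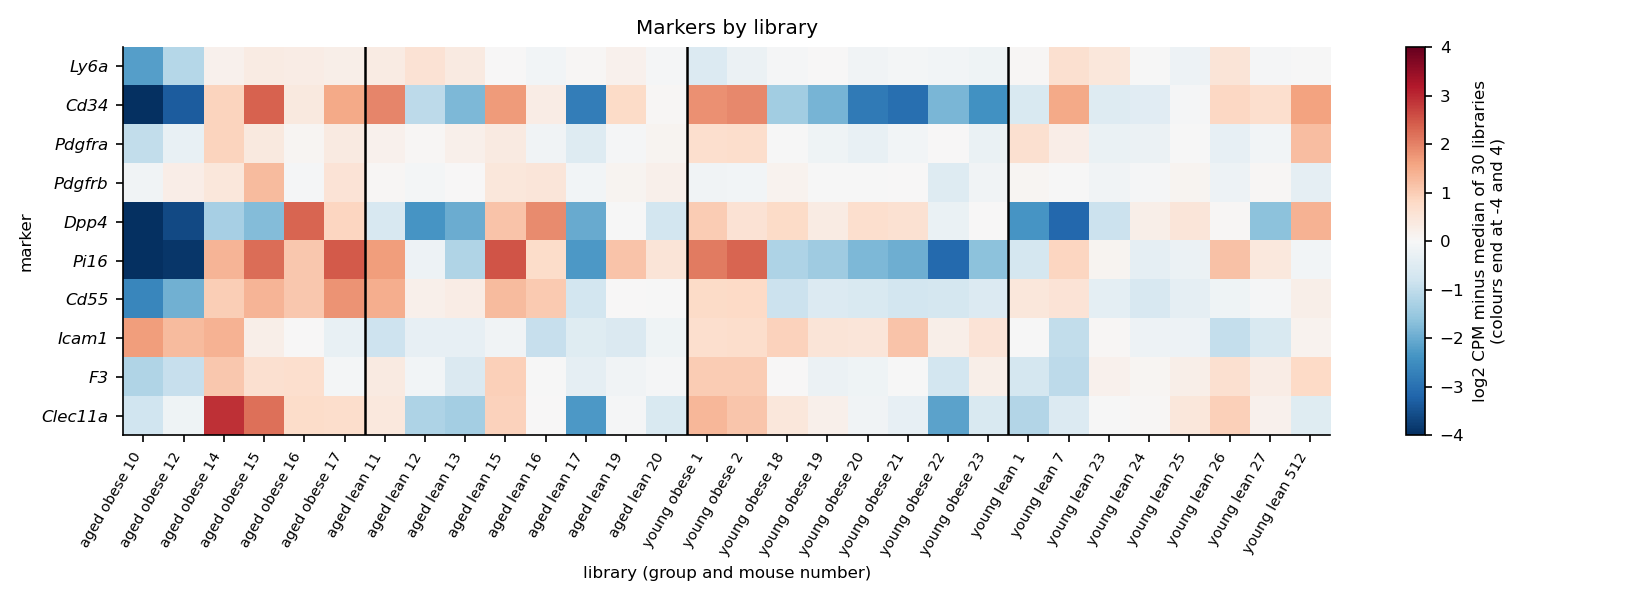
Log2 CPM of each marker (rows) in each library (columns) relative to its median over the 30 libraries, with aged obese libraries at the left, then aged lean, young obese and young lean. Aged obese 10 and 12 are lowest in Cd34, Pi16 and Cd55 and among the highest in Icam1, and young obese 1 and 2 are high in Cd34 and Pi16 where the other 6 young obese libraries are low.

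Per length of transcript the markers were ordered Ly6a, F3, Pdgfrb, Pdgfra, Cd55, Clec11a, Pi16, Icam1, Cd34 and Dpp4, with medians over the 30 libraries of 669, 207, 90.3, 21.2, 2.49, 1.67, 1.60, 1.29, 1.01 and 0.243 CPM per kilobase of exon. From Cd55 to Cd34 neighbours in this order overlapped widely. The SD of log2 CPM within groups was 2.03 for Pi16, 1.89 for Cd34 and 1.48 for Dpp4, beside a median of 0.33 over all tested genes, and these 3 markers stood above 99.9%, 99.9% and 99.3% of them. Against the 500 genes closest in level they stood above 99.8%, 99.2% and 98.0%. Clec11a (1.04) and Cd55 (0.995) also lay in the upper tail, at the 96.4th and 95.7th percentile of all genes. F3 was at 0.652, Ly6a at 0.513, Icam1 at 0.477, Pdgfra at 0.469 and Pdgfrb at 0.284, the last below the middle of the distribution (40.8th percentile). The markers whose group differences did not pass thus include those with the widest differences between mice.

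**Figure D4:**
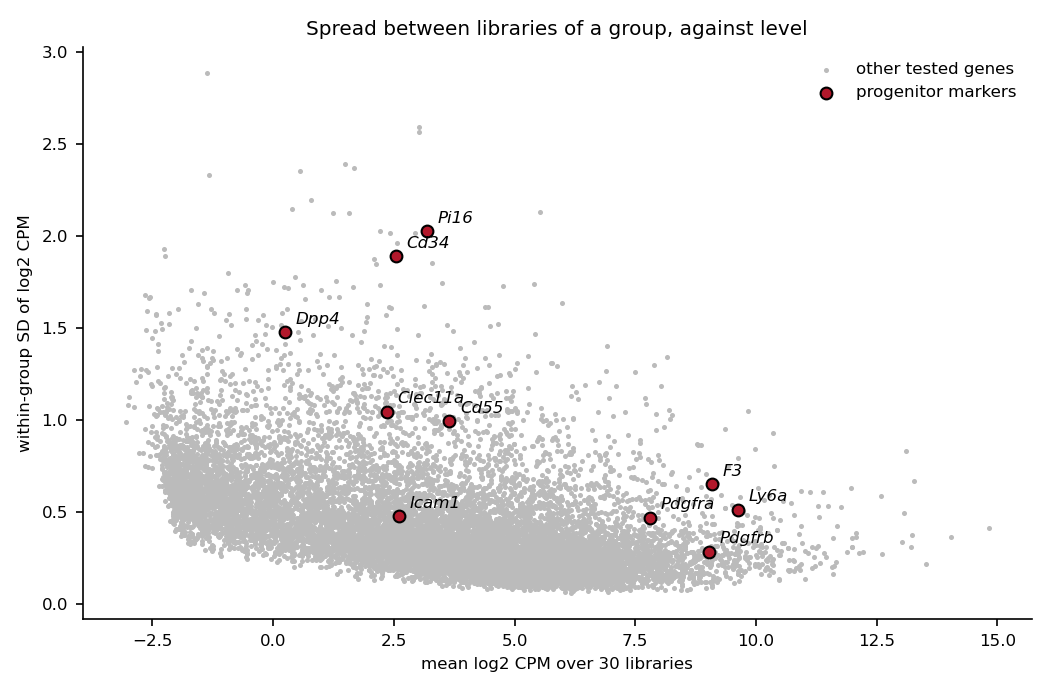
Within-group SD of log2 CPM against mean log2 CPM over 30 libraries, for 14438 tested genes (grey) and the 10 markers (red). Pi16 (SD 2.03), Cd34 (1.89) and Dpp4 (1.48) lie far above genes of like level, and Pdgfrb (0.284) lies among them.

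How the markers ran together within groups was measured by the correlation of group-centred log2 CPM for 45 pairs of markers. Over all 30 libraries 32 pairs passed (permutation test with 100000 resamples, two-sided, adjusted over the 45 pairs), 28 of them positive and 4 negative. The weakest had an r of 0.402 in size, which 33.1% of all pairs of tested genes reached or passed. Without young obese 1 and 2 and aged obese 10 and 12, 8 pairs passed among the remaining 26 libraries, and all 8 had passed in every other set of libraries. The weakest of these was at 0.506, which 17.9% of all gene pairs reached or passed, so that 8 of 45 is a share near that of genes at large. They joined Cd34, Pi16, Cd55 and Clec11a with each other except Cd55 with Clec11a, F3 with Clec11a and with Dpp4, and Pdgfrb with Clec11a. By Spearman's rho 5 of the 8 passed without the 4 libraries, and Pi16 with Cd55 (adjusted p = 0.108), Pdgfrb with Clec11a (0.108) and Dpp4 with F3 (0.193) did not. Cd34 and Pi16 were the closest pair. Their r was 0.948 over 30 libraries (Spearman's rho 0.944, permutation p = 1e-05, the smallest these resamples give, adjusted 4.5e-05) and 0.926 without the 2 libraries farthest from the median of Cd34. Without the 4 libraries it was 0.834 (rho 0.804, permutation p adjusted over the pairs 0.00045). It was 0.992 within aged obese, 0.977 within aged lean, 0.931 within young obese and 0.611 within young lean libraries, and 0.0755 among the 6 young obese libraries other than 1 and 2, where both genes were low.

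Pi16 and Clec11a followed each other at r = 0.800 (rho 0.790, permutation p adjusted 4.5e-05), with 0.738 without the 4 libraries and 0.960 among those 6 young obese libraries. F3 and Clec11a were at 0.808 (rho 0.778, permutation p adjusted 4.5e-05), and at 0.681 without the 4. Icam1 ran the other way. The 4 negative pairs that passed joined it with Ly6a (r = -0.593), Cd55 (-0.553), Pi16 (-0.481) and Cd34 (-0.461), and these relations rested on aged obese 10 and 12, as none passed without them (-0.264, -0.215, -0.123 and -0.157). Libraries that lie close together are not fully independent, so these p-values may be too small.

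**Figure D5:**
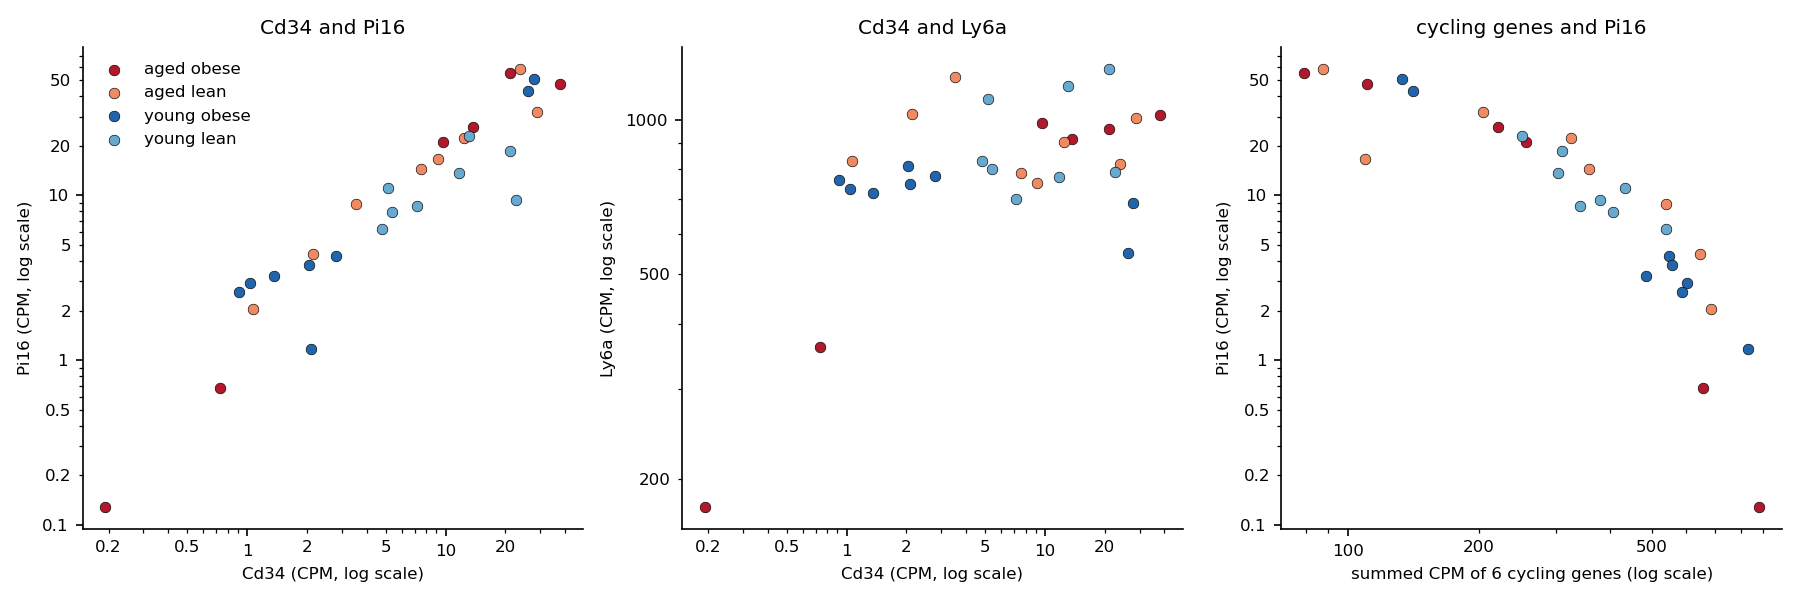
Pi16 against Cd34 (left), Ly6a against Cd34 (middle) and Pi16 against the summed level of 6 cycling genes (right), in CPM on log scales with 1 point per library, coloured by group. Pi16 follows Cd34 over the range (r = 0.948 after group centring), Ly6a is flat except in aged obese 10 and 12, and Pi16 is lower where cycling genes are higher (r = -0.901).

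Cycling genes moved with several markers. The summed level of Mki67, Top2a, Ccnb1, Cdk1, Bub1 and Cdc20, which are made by dividing cells, was 79.1 to 883 CPM in aged obese, 87.3 to 686 in aged lean, 133 to 831 in young obese and 252 to 539 CPM in young lean libraries. It was 883 and 656 CPM in aged obese 10 and 12, and 141 and 133 CPM in young obese 1 and 2, and the other 6 young obese libraries had 485 to 831 CPM. After group centring its r with Pi16 was -0.901 (rho -0.928, permutation p adjusted over the 10 markers 2.5e-05), with Cd34 -0.877 (rho -0.889, adjusted 2.5e-05) and with Cd55 -0.825 (rho -0.782, adjusted 2.5e-05). In all 9 of 10 markers passed, with Clec11a at -0.758, F3 at -0.698, Dpp4 at -0.590, Pdgfrb at -0.553, Pdgfra at -0.516 and Icam1, the one positive, at 0.455. Ly6a was at -0.353 (adjusted p = 0.0548). Many genes ran with the cycling sum, as 48.6% of 14432 other tested genes reached or passed the size of the r of Icam1, while 3.62% reached or passed that of Pi16, 5.04% that of Cd34 and 9.04% that of Cd55. Without the 2 libraries farthest from the median of the cycling sum, Pi16 was at -0.893 and Cd34 at -0.882. Without the 4 libraries that stood apart Pi16 was at -0.835 (adjusted 1e-04) and Cd34 at -0.718 (adjusted 0.00035), while F3 (-0.374), Icam1 (0.310) and Pdgfra (-0.036) no longer passed. In these 26 libraries 4.1% of genes reached or passed the r of Pi16 and 11.4% that of Cd34. The 6 cycling genes themselves passed in none of the 6 comparisons in edgeR (0 at an unadjusted p below 0.05, 0 calls in DESeq2, 7 in voom).

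With the summed cycling level as a covariate in the fit, Icam1 kept its calls with obesity in aged (1.30 ± 0.22, edgeR adjusted p = 0.00962) and young mice (0.96 ± 0.21, adjusted p = 0.00697). Cd34 then passed as lower with obesity in young mice (-1.28 ± 0.43, adjusted p = 0.0359) and between aged obese and young lean cells (-1.53 ± 0.48, adjusted p = 0.0292, against 0.29 ± 0.86 without it). Clec11a passed with obesity in aged mice (1.61 ± 0.36, adjusted p = 0.0309), and Pdgfrb no longer passed with age in obese mice (0.40 ± 0.13, adjusted p = 0.0854). Calls rose over all genes in this fit, so the new calls are not particular to the markers. They were 18.5% of genes with obesity in young mice (8.83% without the covariate) and 1.06% in aged mice (0.222%). For aged obese against young lean cells they were 18.3% (10.3%). What part dividing cells have in the levels of the markers was not tested beyond these fits.

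Other stromal surface markers were compared as well. Of 15 genes of this list 14 were tested, and 4 rose when aged obese were set against young lean cells: the hyaluronan receptor Cd44 (508 ± 238 and 198 ± 37.7 CPM, n = 6 and 8, log2 1.36 ± 0.28, edgeR adjusted p = 0.00661), the integrin subunit Itgb1 (log2 0.34 ± 0.08, adjusted p = 0.0124), the TGF-beta co-receptor Eng (log2 0.53 ± 0.13, adjusted p = 0.01335) and Pdpn (log2 0.65 ± 0.17, adjusted p = 0.0186), the last named after its values were seen. The list's median was 0.12, beside -0.01 for all genes. Itgb1 also rose with obesity in young mice (log2 0.26 ± 0.08, adjusted p = 0.0347) and Cd44 with age in obese mice (log2 0.97 ± 0.28, adjusted p = 0.0498), a call that ended in 21 of 30 fits without 1 library. The calls of Cd44, Itgb1 and Eng against young lean cells held with each library left out and ended with quality weights (adjusted p = 0.0535, 0.0904 and 0.0747), and those of Itgb1 in young and Cd44 in obese mice ended without young obese 1 and 2 (0.112 and 0.0861).

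Across all 30 libraries and 10052 genes that averaged 4 CPM or more, the genes with the pattern most like each marker were listed by Pearson's r of log2 CPM, which also takes in group differences. Cd34 was closest to Scara5 (0.947), Pink1 (0.943) and Pi16 (0.941), and Pi16 to Scara5 (0.963), C4b (0.960) and Pltp (0.959), so that the scavenger receptor Scara5 led for both. Cd55 was closest to Ppt1 (0.946), Pnpla8 (0.925) and Lrrn4cl (0.912), and Ly6a to its relative Ly6c1 (0.929), with which it may share reads, then Igfbp6 (0.863) and Tkfc (0.856). Clec11a was closest to Mfap4 (0.916), Plxdc2 (0.912) and Sod3 (0.900), and F3 to the proteoglycan Dcn (0.898), Ms4a4d (0.859) and Cped1 (0.852). Pdgfra was closest to Smarca2 (0.897), Pcdh19 (0.889) and Lix1l (0.875), Pdgfrb to Mical1 (0.878), Wnt9a (0.868) and Plcd1 (0.856), and Dpp4 to A2m (0.865), Wnt16 (0.842) and Hs6st1 (0.807). Icam1 had the lowest first value, with the actin cross-linker Flna (0.820), Pygb (0.811) and Eogt (0.810). The points share library and depth, and these values are descriptions without a test.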

How the data were processed

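Counts of reads per gene were deposited by the authors as 1 table of 30 libraries and are raw. The tools listed in the submitters' processing notes are STAR, HTSeq (0.7.0) and the package DESeq2 (1.12.4). Their genome build, annotation and strand setting are not given in the sources used here. The table held 38561 genes and 5 lines that name no gene, which were left out (no feature 3.94 to 8.75% and ambiguous 2.69 to 3.41% of counts).

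All 30 libraries were fitted together with edgeR 4.0.16 in R 4.3.3 (filterByExpr by group, TMM scaling, glmQLFit and glmQLFTest), with 6 comparisons and Benjamini-Hochberg adjustment over 14438 genes, called at an adjusted p below 0.05. CPM divides the deposited counts by TMM-scaled library sizes, and an SE is the log2 change divided by the square root of the F value. Correlations used log2 CPM with a prior count of 2. The genes named were the 10 markers, up to 3 called genes of each list and comparison with the smallest adjusted p, and the 3 genes most like each marker. Pdgfa, Vcam1, Nfkbia and Pdpn were named besides, with their values known. DESeq2 1.42.0, limma 3.58.1 (voom with quality weights), RLE scaling, no filter, only the groups compared, a replicate block and leaving out libraries were alternatives. The fit without 4 libraries, the cycling covariate and a fit of libraries with shared mouse numbers were added after seeing the data. The code was tested on simulated data. The markers and lists were chosen with earlier results of these data known. No batch is named in the labels.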

Additional observations from a re-analysis of the deposited data

Results flagged for a closer look

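Ly6a in young obese 1, at 549.5 CPM, lay apart from the other 7 young obese libraries, and Pdgfrb in young obese 22, at 349.2 CPM, lay below the rest of that group. Both were marked because the gap to the nearest library was large for the range of the group (Dixon's test). These were 2 of 40 combinations of marker and group checked, and chance marks about 1 in 20.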

How the results depend on the processing

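Of the 10 markers, 1 passed with age in obese mice (3.07% of all genes). The count was 0 with no filter (0.98% of all genes), with only the groups compared (1.31%) and with the cycling covariate (3.37%), 2 without young obese 1 and 2 (Cd34 and Pi16, 4.46%), 4 without aged obese 10 and 12 (18.3%), 6 without all 4 (30.2%) and 5 with voom quality weights (19.9%). With obesity in young mice 1 passed, against 0 without young obese 1 and 2 (0.993% of all genes), 2 without aged obese 10 and 12 (12.6%), 3 without all 4 (9.14%), 2 with the cycling covariate (18.5%) and 3 with voom (29.5%). With obesity in aged mice 1 passed (0.222% of all genes), against 0 with only the groups compared (0%) and 0 without aged obese 10 and 12 (0.0614%). It was 2 with the cycling covariate (1.06%) or DESeq2 (1.3%). Without all 4 libraries (0.573%) Clec11a passed and Icam1 did not (edgeR adjusted p = 0.07755). Voom (0.79%) called 1 there too, Clec11a in place of Icam1. In aged obese against young lean cells 2 passed, against 1 with only the groups compared (2.96%), 4 without aged obese 10 and 12 (10.3%) and 5 without all 4 (17%). The difference between ages had 0, and 4 without all 4 libraries (9.76%). Leaving out each library in turn gave 0 to 1, 1 to 1, 0 to 1, 1 to 3 and 0 to 0 in these comparisons. The cause of these changes was not tested.

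With the cycling covariate the log2 change turned to -0.15 for Ly6a, -0.25 for Cd34, -0.11 for Pdgfra and -0.21 for Pi16 with age in obese mice, to -0.65 for Pi16 with obesity in young mice, to -1.53 for Cd34, -0.87 for Pi16 and -0.05 for Cd55 in aged obese against young lean cells. It turned to -0.14 for Pi16 and -0.10 for Cd55 in the difference between ages. Ly6a with age in obese mice turned to -0.04 without young obese 1 and 2. In that fit F3 and Clec11a with obesity in young mice turned from 0.09 and 0.24 to -0.28 each. Without aged obese 10 and 12, Icam1 with age in obese mice turned from 0.22 to -0.19 and Dpp4 from -0.16 to 0.41. Dpp4 in the difference between ages there turned from -0.41 to 0.15. The changes of sign named here are not a full list. Pi16 with obesity in young mice turned to -2.03 without young obese 1 and 2, -2.03 without all 4 and -1.56 with voom. With single libraries left out, Ly6a with age in obese mice lay between -0.09 and 0.24, Pdgfra between -0.13 and 0.22 (negative without aged obese 14), Pi16 with obesity in young mice between -0.50 and 0.37 (negative without young obese 1 or 2), Cd34 in aged obese against young lean cells between -0.33 and 0.57 (negative without aged obese 15) and Pi16 in the difference between ages between -0.25 and 0.83. Of 45 marker pairs 32 passed, against 21 with Spearman's rho, 12 without aged obese 10 and 12 and 8 without all 4.

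Over all genes, age in obese mice gave 443 calls, against 253 with no filter, 181 with only the groups compared, 855 with DESeq2 and 2870 with voom. Obesity in young mice gave 1275, against 371, 1642, 1793 and 4266, and obesity in aged mice 32, against 18, 0, 187 and 114. Aged obese against young lean cells gave 1483, against 410 with only the groups compared, 695 with voom and 2642 with the cycling covariate, which gave 2671 with obesity in young and 153 in aged mice. The difference between ages gave 1, against 5 with that covariate, 7 with DESeq2 and 91 with voom, and age in lean mice 0, against 8 with DESeq2 and 6 with voom. Without all 4 libraries age in obese mice gave 4417, aged obese against young lean cells 2493, the difference between ages 1430 and obesity in aged mice 84. Without aged obese 10 and 12 age in obese mice gave 2679 and obesity in aged mice 9, and without young obese 1 and 2 obesity in young mice gave 143 and in aged mice 49. Leaving out 1 library gave 43 (without aged obese 15) to 1027 (without aged obese 16) calls with age in obese mice, 201 (without young lean 26) to 2197 (without the young lean library of the highest mouse number) with obesity in young mice, 9 (without aged obese 10) to 435 (without aged lean 16) with obesity in aged mice, 642 (without aged obese 15) to 2405 (without aged obese 16) in aged obese against young lean cells, 1 to 6 (without aged lean 16) in the difference between ages and 0 to 1 with age in lean mice.

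A replicate block could be fitted only on the libraries whose mouse number both groups share, 1 and 23 in young and 12, 15, 16 and 17 in aged mice. It left 0 markers and 0 genes passing with obesity at either age, and the same libraries without the block, a fit added after seeing the data, also gave 0 markers and 0 genes. Cd34 in young mice was at 0.37 with and 1.45 without the block there, and Icam1 at 0.60 in young mice in both and at 0.77 and 0.87 in aged mice. Correlations between libraries of 1 number were -0.517 to 0.39. These few values, not compared with those of unlike numbers, cannot settle whether the numbers pair the libraries.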
